A study of Drosophila melanogaster with 4 samples.

Results

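The right arm of chromosome 3 (3R), the longest arm sequence of the Drosophila melanogaster genome at 27.9 Mb, held 6689 of the 26938 regions of enriched H4K8ac listed in head nuclei of adult flies. These regions, called clusters here, were taken as every enriched row placed on 3R in each of the 3 deposited lists. They were 2048 of 8148 clusters in replicate 1, 2095 of 8140 in replicate 2 and 2546 of 10650 in the authors' combined replicate set. A single row of the combined set that was marked as depleted was left out. The series holds 4 samples of the wild-type Oregon-R strain at mixed adult stages, 2 H4K8ac ChIP libraries and 2 input libraries of sheared chromatin that was not immunoprecipitated. No sample carried a mutation, transgene or treatment, and each input served as the control for its own ChIP library. Flies came from population cages, heads were collected with sieves, and the labels do not state if the replicates were separate collections, so their spread may be technical. The lists name no gene, so the head label was not checked against marker genes, and coordinates are those of FlyBase release 5. The lists carry no read counts, so sequencing depth is unknown.

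H4K8ac is acetylation of lysine 8 in the tail of histone H4. Histone acetyltransferases place it, deacetylases remove it, and proteins with bromodomains can bind acetylated lysines. It is found mainly over promoters, enhancers and the first part of transcribed genes, so it is read as a mark of active chromatin. Whether the chromatin in these clusters was active was not tested. Fly 3R is known for carrying both homeotic gene complexes, which Polycomb group proteins hold silent outside their domains of expression.

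Head H4K8ac on 3R consisted of many short clusters and a few long domains. Clusters covered 8.41 Mb of the arm in replicate 1 and 7.99 Mb in replicate 2, or 29.4% ± 1.06 of its bases (SD, n = 2). The shortest cluster on this arm measured 1301 bp in each replicate and 1001 bp in the combined set. The median length was 2316.5 bp in replicate 1 and 2162 bp in replicate 2. Clusters under 2 kb numbered 816 in replicate 1 and 882 in replicate 2 and held 15.4% and 17.6% of the clustered bases. At the other end, 150 clusters of replicate 1 and 133 of replicate 2 measured at least 10 kb. This long class was 6.84% ± 0.69 of the clusters and held 31.0% ± 1.89 of the bases (SD, n = 2). Heads contain many cell types, so acetylation in few cells and weaker acetylation in many cannot be told apart.

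Scores were larger in the long domains, and read as log2 ratios the replicate medians give a modest enrichment. The score that the authors gave each cluster was read as the log2 of ChIP over input, since 2 raised to the difference between a score and the commonest score of its list was a ratio of whole numbers in all 2027 clusters tested in replicate 1 and all 2082 in replicate 2. The other 21 and 13 clusters held the commonest score itself and could not be tested. This check bears on the base of the logarithm. It leaves a constant per list open, and it cannot show that the ratio is ChIP over input. All fold values here rest on that reading. The median score was 0.64 in replicate 1 and 0.63 in replicate 2, which on this reading corresponds to 1.56-fold and 1.54-fold on the linear scale. In the long class the median score was 0.88 in replicate 1 and 0.85 in replicate 2, while in the shorter clusters it was 0.63 and 0.62. Length and score had a Spearman's rho of 0.745 in replicate 1 and 0.732 in replicate 2, both across clusters, which are not independent replicates. Within the clusters of at least 2 kb rho was 0.619 and 0.580, and within those under 2 kb it was 0.043 and 0.065.

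**Figure D1:**
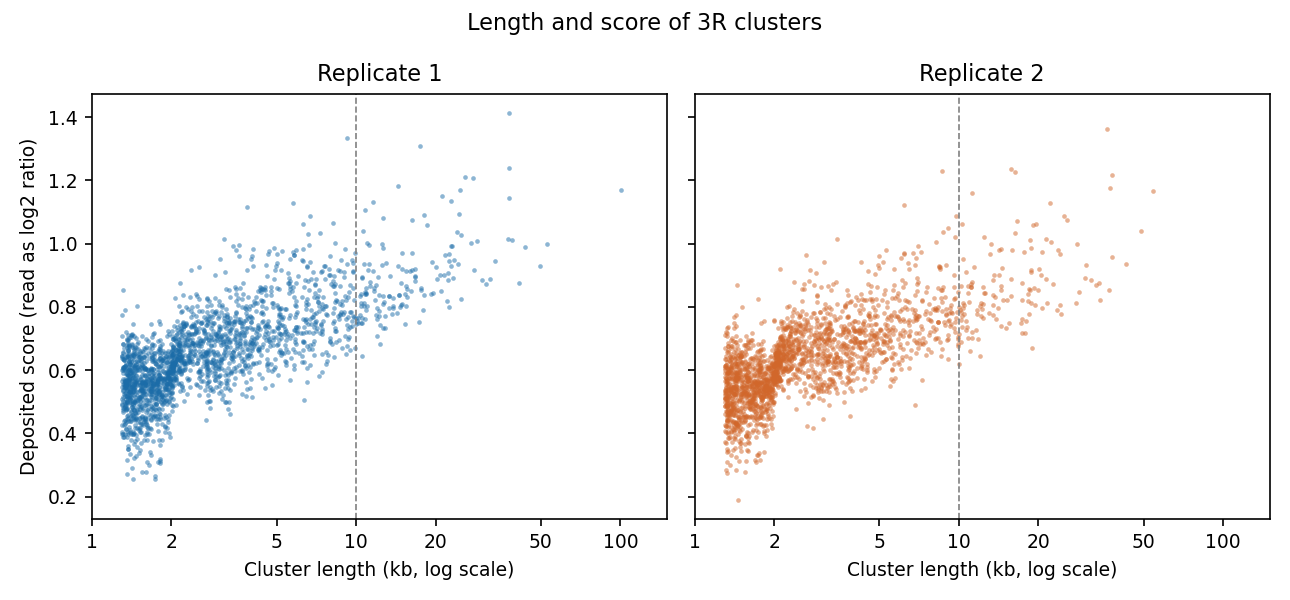
Length of each 3R cluster in kb on a log axis against its deposited score, 1 point per cluster, for replicate 1 on the left and replicate 2 on the right, with a dashed line at 10 kb. Scores spread widely among the clusters under 2 kb, and among clusters of at least 10 kb the median was 0.88 in replicate 1 and 0.85 in replicate 2.

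The highest domain of the arm in the replicate lists was also among the longest and lay near the telomere end. In replicate 1 it spanned 3R 27243551 to 27281320, with a score of 1.41. In replicate 2 it spanned 27243551 to 27280002, with a score of 1.36. Both lists placed its left edge on the same base, and it held the highest score of 3R in each of them. Read as log2 ratios, these scores correspond to 2.66-fold and 2.57-fold. In the combined set this domain scored 1.37, but it was not the highest there, since the top 3R score of that set was 2.75. A combined cluster of only 1001 bp, starting at 4435616, scored 2.62. Second among the replicate pairs was a shorter domain at 3R 12068422 to 12085920. It measured 17.5 kb in replicate 1 and 15.7 kb in replicate 2, with scores of 1.31 and 1.24. The stretch between 0.8 and 0.95 Mb, near the centromere end of the arm sequence, held 3 of the 10 highest pairs. They started at 834565, 878042 and 898691 in replicate 1, and their scores there were 1.24, 1.08 and 1.13, while in replicate 2 they were 1.22, 1.23 and 1.16.

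These pairs were ranked among 1081 that overlapped reciprocally by at least 50%, by the lower of the 2 scores. The remaining members of the 10 started at 13524732, 5708684, 26105982, 22363574 and 19722702 in replicate 1, with lower scores between 1.09 and 1.18. The 10th pair had a lower score of 1.08, and the next one of 1.07, so the rank has no clear edge. Of the 10 highest pairs, 4 contained one of the 10 longest shared stretches. Cluster lengths among the 10 highest ran from 8.64 to 100.4 kb.

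Long domains overlapped between the replicates, which often broke them at different points. Every cluster of the long class touched one of the other list, but many were split there into several pieces. The stretches named next were picked because both lists cover them, so they cannot show how closely placement agreed. The longest stretch inside a cluster of both replicates measured 54.2 kb, at 3R 5754593 to 5808823. Replicate 1 had there a single cluster of 100.4 kb with a score of 1.17, the longest on the arm, and replicate 2 one of 54.2 kb with a score of 1.16. In the combined set it was part of a domain of 117.1 kb, of which replicate 1 clusters covered 98.6% in 4 pieces and replicate 2 clusters 95.8% in 6 pieces. The window from 5.7 to 5.8 Mb, which lies within it, was the most covered of the arm.

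Next in length came 49.0 kb at 3R 19436627 to 19485617, with scores of 1.00 in replicate 1 and 1.04 in replicate 2. A stretch of 42.7 kb at 3R 22624373 to 22667064 followed, with scores of 0.99 and 0.94. Its edges differed by 26 bp on the left and 692 bp on the right between the replicates. The others of the 10 longest started at 834565, 14875958, 26106433, 27243551, 22303133, 8390710 and 18890646 and measured 30.4 to 37.8 kb, and the 11th measured 27.9 kb. In the last of them the lists disagreed on extent, since the replicate 1 cluster spanned 49.7 kb and the replicate 2 cluster 30.4 kb at scores of 0.93 and 0.93. Over the arm, 93 shared stretches were at least 10 kb long, and they held 24.96% of the shared bases.

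Breaks inside domains were common. Of the 113 combined clusters of at least 20 kb on 3R, 19 met a single replicate 1 cluster and 16 a single replicate 2 cluster. The others met up to 11, with a median of 3 pieces in replicate 1 and 4 in replicate 2. The pieces nonetheless filled most of each domain, with median coverage of 92.8% and 90.1% and a minimum of 53.9% and 51.6%. The combined set rests on these same libraries and adds no independent support. After clusters under 500 bp apart were merged, the count of shared stretches of at least 10 kb was 157 rather than 93.

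Spacing followed the same uneven layout, with clusters crowded together and separated by a few large voids. The median distance to the next cluster was 1990 bp in replicate 1 and 1944 bp in replicate 2, shorter than the median cluster. The lower quartile was 600.2 and 595.5 bp and the upper one 7120 and 7118.5 bp. Distances under 500 bp made up 22.1% and 21.9% of all. By contrast, 32 distances in each replicate were at least 100 kb, and those of at least 50 kb held 41.8% and 42.8% of the unclustered bases between clusters. Stretches of at least 50 kb without a cluster in either replicate numbered 63 and took up 24.2% of the arm.

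The 2 longest voids held almost no cluster of any list. The first, 442.7 kb at 3R 2458894 to 2901552, was bounded by clusters in both lists and measured 450.2 kb in replicate 1 and 442.7 kb in replicate 2. The combined set placed 2 clusters inside it, covering 0.523% of its bases at scores up to 0.42, and another reached 85 bp over its rim. The second, 354.5 kb at 3R 12456368 to 12810865, measured 358.1 and 354.9 kb in the replicates. No combined cluster lay inside it, and 2 reached over its rim by 99 bp in all.

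As background that was not tested against the files, FlyBase release 5 maps place the Antennapedia complex in the first of these voids and the Bithorax complex in the second. These names were added after the positions were seen. The Antennapedia complex holds labial (lab), proboscipedia (pb), Deformed (Dfd), Sex combs reduced (Scr) and Antennapedia (Antp), which set the identity of head and thorax segments. The Bithorax complex holds Ultrabithorax (Ubx), abdominal-A (abd-A) and Abdominal-B (Abd-B), which do so in the posterior thorax and the abdomen. All 8 genes are on 3R in the RefSeq table of release 6, in this order along the arm. No release 5 annotation was used, so single genes were not placed within the voids.

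The next voids were shorter. The third, 278.6 kb at 3R 2939314 to 3217956, lay beside the first with 37.8 kb between them, and held 13 combined clusters over 6.29% of its bases with scores up to 0.48. The fourth measured 218.6 kb at 3R 3949536 to 4168087 and held 1 combined cluster over 0.604% of it. The fifth measured 182.0 kb at 3R 15052793 to 15234838 and held 1 over 0.765%. Counts of combined clusters in these voids are of clusters wholly inside them, and another 2, 2 and 1 overlapped the rims. Thus 3 of the 5 longest voids lay between 2.4 and 4.2 Mb, and the 1 Mb bins from 2 to 3 Mb and from 3 to 4 Mb were covered to 11.9% ± 0.126 and 17.3% ± 0.897 (SD, n = 2).

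In windows of 100 kb, coverage ran from nothing to nearly every base. Of 279 full windows, the median was covered to 26.2% in replicate 1 and 24.4% in replicate 2. The upper 10% of windows began at 67.4% and 60.6%. Windows covered to at least 50% in both replicates, called dense here, numbered 48, or 17.2%, against 12.3% of the windows of the 5 large arms together. These 5 arms include 3R itself and the X chromosome. On the other large autosomal arms the dense share was higher than this background, at 14.3% on 2L, 14.2% on 2R and 13.1% on 3L. Windows empty in both replicates numbered 19, or 6.81%, against 7.74% over the 5 large arms. The share of empty windows was thus near that background. The windows that held 50% of the clustered bases numbered 66 in each replicate, or 23.7% of all.

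**Figure D2:**
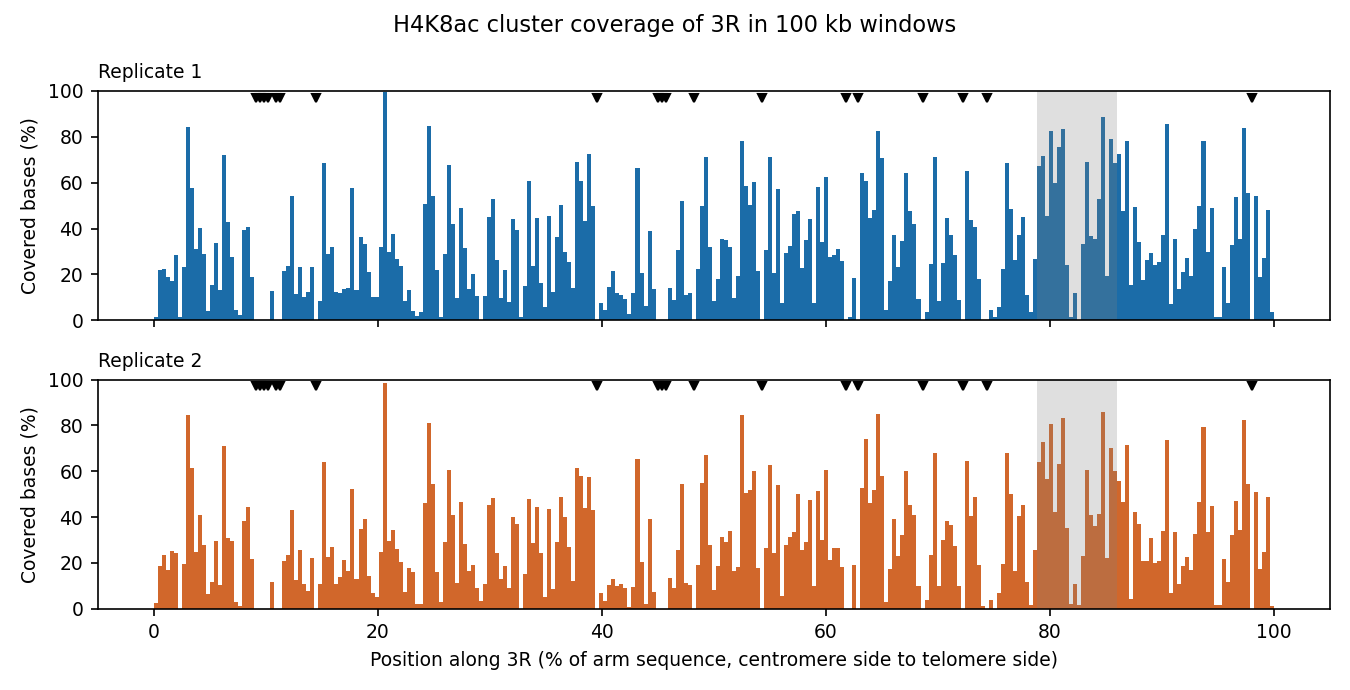
Percent of bases inside a cluster in each 100 kb window of 3R, drawn as bars from the centromere side (0%) to the telomere side (100%) for replicate 1 above and replicate 2 below. Triangles mark the 19 windows empty in both replicates, and the grey band marks the stretch from 22 to 24 Mb, which was covered to 50.3% in replicate 1 and 47.7% in replicate 2.

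Dense windows had both more and longer clusters. A median of 12 clusters started in a dense window in replicate 1 and 13 in replicate 2, against 6 and 6.5 in the windows that were neither dense nor empty. The clusters centred in dense windows had median lengths of 3034 and 2661 bp, against 2127.5 and 2057 bp elsewhere. Their median scores were 0.69 and 0.66, against 0.63 and 0.61. Length enters coverage directly, so these values describe the windows and are no test. Dense windows held 39.5% of the clustered bases of replicate 1 and 39.6% of those of replicate 2.

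The 5 most covered windows lay apart from each other along the arm, although 2 of them were in the stretch from 22 to 24 Mb. The window from 5.7 to 5.8 Mb was covered to 99.5% in replicate 1 and 98.4% in replicate 2. It was followed by 23.6 to 23.7 Mb, at 88.8% and 85.9%. The window starting at 800001 had 84.1% and 84.5%, the one starting at 22600001 had 83.4% and 83.3%, and the one starting at 18000001 had 82.4% and 84.8%. They were built in different ways. Only 2 clusters of replicate 1 and 4 of replicate 2 started in the first, whereas 10 and 12 started in the second and 9 in each replicate in the fifth.

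Dense and empty windows rarely formed long runs. The 48 dense windows formed 34 runs, of which 23 were single windows. The longest was 4 windows, from 14.6 to 15 Mb, covered to 61.8% and 61.7% on average. The 19 empty windows formed 13 runs, of which 10 were single windows. The longest of them was 4 windows from 2.5 to 2.9 Mb, followed by 3 windows from 12.5 to 12.8 Mb and 2 from 3 to 3.2 Mb, all inside the 3 longest voids. Single empty windows began at 4, 11, 13.4, 15.1, 17.2, 17.5, 19.1, 20.1, 20.7 and 27.3 Mb. Of these single windows, 3 bordered on a dense one. The empty window from 27.3 to 27.4 Mb had the dense runs from 27.1 to 27.3 Mb and from 27.4 to 27.5 Mb on either side. The domain with the highest score of the arm in each replicate ended 18.7 kb before this empty window. The empty window from 17.5 to 17.6 Mb was followed by a dense run up to 17.8 Mb, and that from 20.1 to 20.2 Mb by a dense window.

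Coverage of neighbouring windows was weakly related. The correlation of each window with the next was r = 0.314 in replicate 1 and 0.309 in replicate 2, and with the next but one 0.0838 and 0.0678. At a distance of 5 windows r was -0.034 and -0.041, and at 10 windows 0.168 and 0.186. These values share windows and libraries and are given as descriptions.

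With the arm sequence divided into 3 parts of equal length, coverage was higher toward the telomere. The inner part, next to the centromere, was covered to 24.7% in replicate 1 and 23.7% in replicate 2. In the middle part these values were 30.4% and 28.8%, and in the outer part 35.3% and 33.4%. Median cluster length followed, at 2137 and 2014 bp, then 2316.5 and 2155 bp, then 2566 and 2379 bp. The median score was 0.62, 0.64 and 0.68 from the inner to the outer part in replicate 1 and 0.60, 0.62 and 0.65 in replicate 2. The count of clusters per Mb did not follow this order in replicate 1, where it was 65.7, 79.8 and 74.7. The order was the same in both replicates for coverage, length and score, although single bins departed from it. The bin from 10 to 11 Mb was covered to 43.6% ± 2.17, and the next bin, from 11 to 12 Mb, to 8.48% ± 1.51 (SD, n = 2), the lowest of the 27 full bins. The outer part contains the stretch from 22 to 24 Mb, which was chosen for its high coverage. It was covered to 50.3% in replicate 1 and 47.7% in replicate 2. The inner part contains most of the 5 longest voids. How far the order rests on these stretches was not tested.

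The stretch from 22 to 24 Mb was chosen because its coverage was known to be high, so its coverage is a description. It was covered to 50.3% in replicate 1 and 47.7% in replicate 2, against 28.6% and 27.2% for the rest of the arm. It made up 20 of the 279 full windows of the arm and held 11.96% and 11.9% of the clustered bases of 3R. The difference in coverage was 21.1 ± 0.851 percentage points (SD, n = 2). The difference was 21.7 percentage points in the combined set.

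Clusters in the stretch were longer and closer to each other than elsewhere on the arm, and in the replicate lists they were also more numerous. There were 93.5 and 103.5 clusters per Mb, against 71.8 and 72.9 in the rest. In the combined set the order was the reverse, with 86.0 per Mb in the stretch and 91.6 in the rest. Median length was 3022 bp in replicate 1 and 2544 bp in replicate 2, against 2256 and 2128 bp. The median distance between clusters was 1393 and 1371 bp, against 2034 and 2048.5 bp. Clusters of at least 10 kb numbered 26 and 18, or 13 and 9 per Mb, against 4.79 and 4.44 per Mb in the rest. Median scores were 0.70 and 0.68, against 0.64 and 0.62. In each of these measures both replicates differed in the same direction. They depend on coverage, by which the stretch was chosen.

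Inside the stretch coverage was broken by a low interval. Of its 20 windows, 9 were dense, or 45.0%, against 39 of 259, or 15.1%, on the rest of the arm. Dense windows are defined by coverage, for which the stretch was chosen, so these shares are a description and no test. The first block ran from 22 to 22.7 Mb. In it the windows starting at 22000001 and 22100001 were covered to 67.3% and 71.5% in replicate 1 and to 64.1% and 73.0% in replicate 2. The window starting at 22200001 was below 50% in replicate 1, at 45.4%, but not in replicate 2, at 56.6%. Those starting at 22300001 and 22600001 had more than 80% in both, as described by the shared domains at 22303133 and 22624373.

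Sparse windows followed. The window starting at 22800001 was covered to 1.33% in replicate 1 and 2.16% in replicate 2, the next to 11.9% and 11.0%, and the one starting at 23000001 to 0% and 1.49%. The second block began at 23.2 Mb and was more uneven. The window starting at 23200001 had 69.0% and 60.4%, that at 23400001 35.6% and 36.3%, that at 23600001 88.8% and 85.9%, and that at 23700001 19.2% and 22.0%. The last 2 windows, from 23.8 Mb on, had 79.2% and 68.4% in replicate 1 and 70.0% and 59.9% in replicate 2, and the dense run went on to 24.1 Mb. The replicates differed by the most of any window on the arm, 17.6 percentage points, in the one starting at 22400001, with 60.0% in replicate 1 and 42.4% in replicate 2.

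**Figure D3:**
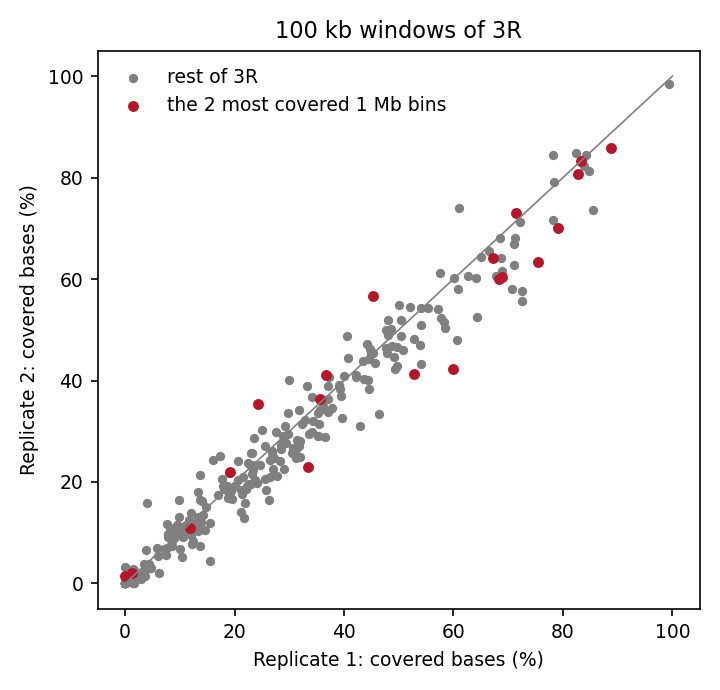
Percent of bases inside a cluster in replicate 1 (horizontal) and replicate 2 (vertical) for each of the 279 full 100 kb windows of 3R, with the line of equal coverage and the 20 windows from 22 to 24 Mb in red. Points follow the line (r = 0.982), and 169 windows lie on the replicate 1 side of it.

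The replicates ranked the windows of the arm nearly alike. Coverage across the 279 windows had a Pearson's r of 0.982 and a Spearman's rho of 0.983, as descriptions of windows that are not independent. The median absolute difference was 2.19 percentage points. Replicate 1 was higher in 169 windows, replicate 2 in 91, and the rest were equal. In 1 Mb bins replicate 1 was higher in 24 of 27, and the median absolute difference over all bins was 1.09 percentage points. The differences were largest in the 3 bins from 23 to 26 Mb, at 4.14, 4.54 and 4.17 percentage points. Of the windows empty in one replicate, 7 were empty in that replicate alone, and the other replicate covered at most 3.20% of them. Another 11 windows were dense in a single replicate.

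Most clusters were found again, and those that were not were short. In replicate 1, 1631 of 2048 clusters shared at least 1 bp with a replicate 2 cluster (79.6%, exact 95% binomial interval 77.8 to 81.4), against 77.7% over all sequences. In replicate 2, 1729 of 2095 did so (82.5%, interval 80.8 to 84.1), against 80.8% over all sequences. The intervals cover counting error alone, since neighbouring clusters are not independent. Clusters not found again had median lengths of 1591 and 1582 bp and median scores of 0.57 and 0.57, whereas those found again had 2861 and 2504 bp and 0.67 and 0.64. The longest that was not found again measured 4686 bp in replicate 1 and 4855 bp in replicate 2. A longer cluster has more room to touch another, so the 1 bp rule itself favours long clusters.

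Agreement was higher for longer clusters and for higher scores. Under 1.5 kb, 51.6% of replicate 1 clusters and 59.9% of replicate 2 clusters were found again. From 2 to 5 kb these shares were 88.6% and 91.6%. All 286 and 244 clusters of 5 to 10 kb, and all 150 and 133 of at least 10 kb, met a cluster of the other replicate. With the clusters of each list in 4 classes of equal size by score, the share was 63.7% in the lowest and 96.7% in the highest class of replicate 1. In replicate 2 these shares were 69.1% and 98.1%. Scores rose with length, so the order by score is not separate from that by length.

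**Figure D4:**
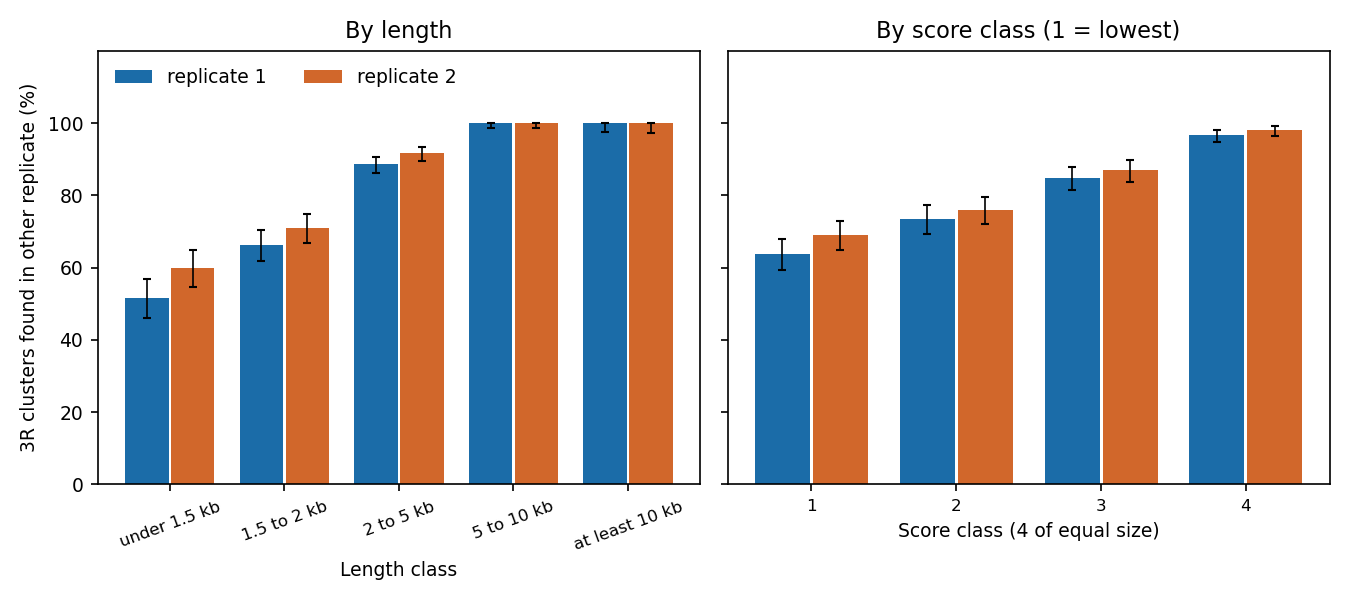
Share of 3R clusters that overlapped a cluster of the other replicate by at least 1 bp, by length class on the left and in 4 classes of equal size by score on the right, with exact 95% binomial intervals as error bars. The shares under 1.5 kb are 51.6% in replicate 1 and 59.9% in replicate 2, and every cluster of at least 5 kb was found again.

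In bases, the replicates shared 6.60 Mb of 3R, or 78.5% of the clustered bases of replicate 1 and 82.6% of those of replicate 2. The Jaccard index, the shared bases over the bases in either list, was 0.674. On the other large autosomal arms it was 0.649 on 2L, 0.672 on 2R and 0.676 on 3L, so 3R lay within their range. When at least 50% of each of the clusters had to overlap, 52.8% of replicate 1 clusters and 51.6% of replicate 2 clusters were shared. Under this rule the longest cluster not shared measured 27882 bp in replicate 1 and 34221 bp in replicate 2.

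Edges and scores agreed less closely than position. Among 887 pairs that overlapped one to one, the median offset was 245 bp at the start and 300.0 bp at the end. Both ends lay within 100 bp of each other in 69 pairs. Scores of the pairs had a Spearman's rho of 0.620 and a Pearson's r of 0.720 across clusters. Replicate 1 scores lay above replicate 2 scores in 520 pairs, by a median of 0.02 over all pairs, and the differences had an SD of 0.10. Split clusters were left out of these pairs. In replicate 1, 340 clusters met several replicate 2 clusters, with up to 6 pieces, and in replicate 2, 275 met several replicate 1 clusters. Among the clusters of at least 10 kb, 90 of 150 and 69 of 133 were split in this way.

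The combined set added mostly short and weak clusters to the arm. It covered 44.1% of 3R, with a median score of 0.44. Of its 2546 clusters, 1047 met a cluster in each replicate, 592 in a single replicate and 907 in none. The first group had a median length of 5727 bp and made up 78.2% of the covered bases of this set. In the last group the median length was 1293 bp and the median score 0.38, and 466 of its clusters were shorter than any 3R cluster of the replicate lists. The voids were filled in part, since 11 of the 19 windows empty in both replicates were empty in the combined set as well, and in the others at most 8.36% of the bases were covered.

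Compared with the mean of the other large autosomal arms, 3R was somewhat more covered and more densely set with clusters, at nearly the same scores. Coverage was 30.1% in replicate 1 and 28.6% in replicate 2, against means of 27.2% and 26.3% over 2L, 2R and 3L. The difference was 2.60 ± 0.423 percentage points (SD, n = 2, exact sign-flip permutation p = 0.5, two-sided). Clusters per Mb numbered 73.4 and 75.1, against 69.2 and 69.4, a difference of 4.94 ± 1.07 (SD, n = 2, exact permutation p = 0.5). In both measures 3R ranked first of the 4 arms in each replicate. Long clusters of at least 10 kb numbered 5.38 and 4.77 per Mb, against 4.62 and 4.33, and 3R again ranked first. With 2 replicates 0.5 is the smallest two-sided p this test can give, so none of these differences could pass a threshold of 0.05. The differences in coverage, clusters per Mb and long clusters per Mb each exceeded their own SD between the replicates. That SD does not measure the spread between arms. The other arms themselves ran from 65.2 (3L) to 71.7 (2L) clusters per Mb as means of the replicates.

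Median scores differed by 0.0015 ± 0.0011 (SD, n = 2, exact permutation p = 0.5), and 3R ranked second in each replicate. Median length minus the mean of the other arms was 94.8 bp in replicate 1 and -6.67 bp in replicate 2 (exact permutation p = 1). The difference in length was smaller than the spread between the replicates, and that in score turned its sign in the combined set.

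**Figure D5:**
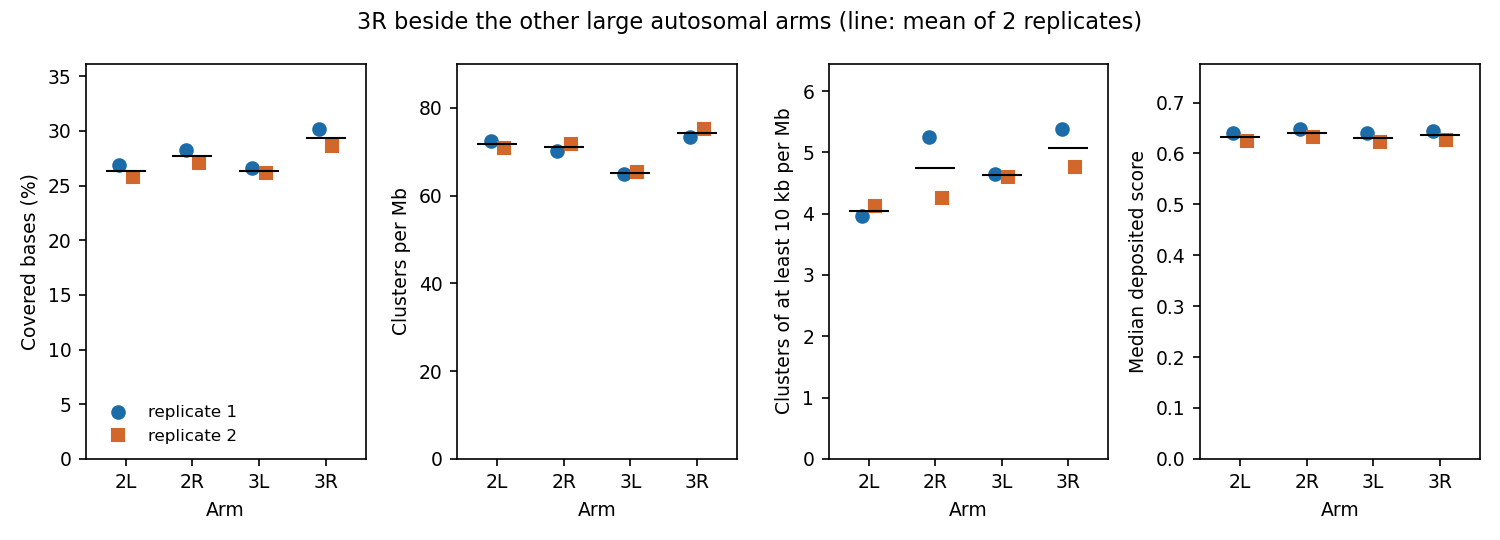
Covered bases, clusters per Mb, clusters of at least 10 kb per Mb and median score for the 4 large autosomal arms, with a circle for replicate 1, a square for replicate 2 and a line at their mean. On 3R the coverage points are at 30.1% and 28.6%, above those of 2L, 2R and 3L in the same replicate, while the median scores of 0.64 and 0.63 lie level with theirs.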

How the data were processed

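H4K8ac ChIP and input libraries of adult heads were sequenced by the authors. The submitters' processing notes name Bowtie 0.12.7. Each deposited list holds the ends of each region and 1 score set by the authors, and per the file headers the build is FlyBase release 5. How regions were called, filtered and combined over replicates is not given in the sources used here. Input libraries have no list of their own. Without read totals, single scores carry no error here.

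Groups and replicate numbers came from the sample titles. The enriched rows on 3R were kept. Lists were read with Python 3.11.15, numpy 2.4.6, pandas 2.3.3 and scipy 1.17.1. Coverage used the sequence length in the headers, and windows were counted from base 1. Scores were compared with the commonest score of their list, and a ratio was called whole at a relative tolerance of 1e-12 with denominators up to 50000. Base e and base 10 gave at most 0.197% where base 2 gave at least 99.7%. Intervals are exact Clopper-Pearson intervals at the 95% level. Arms were compared with an exact two-sided sign-flip permutation test over the 2 replicates.

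The regions named are the 10 longest shared stretches, the 10 highest reciprocal pairs, the 5 most covered windows, all empty windows, the 5 longest voids and the windows from 22 to 24 Mb. The arm, these rules and the tests were chosen with earlier results of these data known. Overlap and coverage steps were tested on simulated data, where 207 of 207 clusters built as shared among 249 were found. Alternatives kept the upper 50% by score, merged clusters under 500 bp apart, left out clusters under 2 kb or a replicate, used the combined set, reciprocal overlap of 50% or 3L alone, and moved or shrank the windows. No genome or annotation of release 5 was used, so no sequence is printed and no gene was placed by coordinate. The RefSeq table of release 6 gave gene names and order only.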

Additional observations from a re-analysis of the deposited data

How the results depend on the processing

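Of 34 alternative values of the 5 differences between 3R and the other arms or between 22 to 24 Mb and the rest, 31 kept their direction. The stretch from 22 to 24 Mb was chosen for its high coverage, so its values in this count are no support. The exceptions were the median score against the other arms, which was -0.0028 among the upper 50% by score and -0.00090 in the combined set, and the median length, at -6.67 bp without replicate 1 and 94.8 bp without replicate 2. With replicates left out in turn, coverage ran from 28.6% to 30.1%, clusters per Mb from 73.4 to 75.1 and spacing from 1944 to 1990 bp. Dense windows then ran from 51 to 56 and empty windows from 22 to 23. These counts rest on a single list, so they cannot be lower than the 48 and 19 windows that met the rule in both replicates.

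Among the upper 50% by score, coverage was 20.6%, density 32.3 clusters per Mb, spacing 5285 bp, dense windows 22, empty windows 42, window r 0.951, the shares found again 72.6% and 75.2%, the Jaccard index 0.631 and the rho of paired scores 0.540. After merging, density was 57.9 per Mb, spacing 3353.8 bp, the Jaccard index 0.681, shared stretches of at least 10 kb 157 and rho 0.635. Without clusters under 2 kb, coverage was 24.6%, density 43.8 per Mb, spacing 3636.5 bp, dense windows 32, empty windows 32, window r 0.970, the replicate 2 share found again 84.7%, the Jaccard index 0.668 and rho 0.586. In the combined set, coverage was 44.1%, density 91.2 per Mb, spacing 1287 bp, dense windows 118 and empty windows 11. With reciprocal overlap of 50%, the shares were 52.8% and 51.6% and rho 0.718. With windows of 50 kb, 109 were dense and 78 empty, and r was 0.975. Thinning, merging and the combined set change by construction which clusters enter, and the cause was not tested further. No paired analysis was possible between ChIP and input libraries because the inputs have no list here, while the differences between arms and between stretches were taken within each replicate. Depth is unknown, so no limit from it could be measured.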

Other observations

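Scores changed in a step at a length of 2 kb. On 3R the lowest score among clusters of 1.8 to 2 kb was 0.31 in replicate 1 (162 clusters), and among those of 2 to 2.2 kb it was 0.47 (163 clusters). In replicate 2 it was 0.34 (182 clusters) and 0.52 (187 clusters), and in the combined set 0.20 (167 clusters) and 0.35 (109 clusters). The median score moved from 0.57 to 0.63, from 0.55 to 0.63 and from 0.38 to 0.44 in the same order. The step was seen in the plot of length against score after the data were examined, it was not tested, and the sources used here give no length rule of the region caller.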
